A study of Mus musculus with 10 samples.

Results

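AdKO organoids are mouse oviduct organoids made to lose *Cdc42* in the dish, by infection with an adenovirus that carries Cre (Ad5-CMV-Cre), and they were compared with F/F organoids in 2 culture states. The comparison uses 6 of the 10 sequenced libraries: AdKO_Diff (n = 1), AdKO_Con (n = 1), F/F_Diff (n = 2) and F/F_Con (n = 2). These numbers follow the labels of the libraries. A figure legend of the study gives more than a single sample for each group, but its methods give 10 organoid libraries in all, as the labels do. The other 4 libraries, PgrKO, are organoids of mice whose Cre is expressed from the progesterone receptor gene, and they are given only beside a few results. All groups here derive from *Cdc42* flox/flox oviducts, so the F/F controls carry the same floxed allele. Diff organoids were kept for 6 days with E2 at 10 nM and DBZ, which blocks Notch signaling, at 1 μM to induce multiciliated cells, and Con organoids were kept without them. The organoids were grown in Matrigel from epithelium of the isthmus, the sources do not tie an age to the mice that gave the organoids (mated females of the study were adults), and the Cre of the virus is driven by the CMV promoter, which is not specific to a cell type. For staining and Western blots the study infected *Cdc42* flox/flox organoids with either Ad-GFP, a virus without Cre, or the Cre virus. No source states that the sequenced F/F libraries received a virus without Cre. In the libraries, the loss of *Cdc42*, the infection and the expression of Cre therefore cannot be told apart. No source states whether the AdKO and F/F libraries share a mouse or a culture, or whether both AdKO libraries come from 1 infection, so the p-values reflect the spread among the 6 libraries, which may be technical.

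CDC42 is a small GTPase that switches between a GDP-bound and a GTP-bound form. In its active form it organizes actin, cell polarity and membrane traffic through its effectors. The oviduct epithelium consists of secretory cells and multiciliated cells. Multiciliated cells arise when Notch signaling is low and the regulators GMNC and MCIDAS switch on the genes for centrioles and motile cilia.

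The libraries held 11745729 to 16818787 reads assigned to genes, with the 2 AdKO libraries the shallowest, and 12858 to 13568 genes reached 1 FPKM, a read level corrected for the length of the gene and the depth of the library. Epithelial markers such as *Epcam*, the epithelial adhesion molecule, were high in every library, at 256 FPKM in AdKO_Diff and 265 FPKM in AdKO_Con, against 204 to 380 FPKM in F/F. The leukocyte markers summed to 203 and 176 FPKM in AdKO, against 72.3 to 207 FPKM in F/F. Most of this was *Cd14*, with 185 and 145 FPKM in AdKO, against 52.4 to 172 FPKM in F/F, and *Cd68* (13.6 to 23.2 FPKM) and *Lyz2* (1.8 to 13.3 FPKM) were present in all 6 libraries. The defining members *Cd3e*, at 0 in all 6 libraries, and *Ptprc*, at no more than 0.167 FPKM, were absent or nearly so. The summed level of the 10 fibroblast markers was 19.6 and 36.8 FPKM in AdKO, against 4.78 to 24.8 FPKM in F/F, and *Fbln1* made up nearly all of it in AdKO, with 19 and 36.5 FPKM. *Lum* was at 0 in all 6 libraries and *Col1a1* at 0.141 FPKM or less in AdKO. The part of *Fbln1*-expressing cells in the results was not tested. On the log2 scale over all 15116 genes tested, the distance between AdKO_Diff and AdKO_Con was 55.8, close to that between replicate F/F_Diff libraries (56.5) and replicate F/F_Con libraries (57.4), while an F/F_Diff and an F/F_Con library were 96.1 to 129.4 apart.

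*Cdc42* itself was lower in both AdKO libraries, but the difference did not pass the test. It had 87.9 FPKM in AdKO_Diff and 81.6 FPKM in AdKO_Con, against 125 and 126 FPKM in F/F_Diff and 118 and 133 FPKM in F/F_Con. Both AdKO values lay below all 4 F/F values, with a log2 difference of −0.56 (standard error 0.13, adjusted p = 0.0747, limma with state as a block). In the floxed allele of the study the loxP sites lie on either side of exon 2, which holds the start codon (exon 2 of 6, minus strand, GRCm38, GENCODE M21). Its coding part, 105 bases at chr4:137335975-137336079, is shown because Cre removes it, with the start codon in capitals.
Cdc42 exon 2, coding part: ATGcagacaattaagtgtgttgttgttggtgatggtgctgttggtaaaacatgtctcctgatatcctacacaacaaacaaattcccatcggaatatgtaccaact
Exon 2 makes up 155 of the 2966 exon bases of the gene, or 5.23%. A table with 1 value per gene therefore does not show how many transcripts lack it.

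The lower level of *Cdc42* was shared by much of its chromosome. Of the 579 genes of chromosome 4 that averaged 5 FPKM or more in F/F, 297 (51.3%) lay below both F/F libraries of the same state in both AdKO libraries, against 18.2% to 23.8% of the genes of each of the other 18 autosomes and the X chromosome. The median gene of chromosome 4 was 0.24 log2 units below the F/F mean in AdKO_Diff (median difference −0.24) and 0.41 below it in AdKO_Con (−0.41). On the other 19 chromosomes these medians lay between 0 and 0.1 in AdKO_Diff and between −0.03 and 0.09 in AdKO_Con. The 22 genes of the mitochondrial chromosome, left out of this range, had medians of −0.42 in AdKO_Diff and −0.03 in AdKO_Con, and single F/F libraries deviated from their own mean there by −0.22 to 0.22. The 4 PgrKO libraries had chromosome 4 medians of 0.11, −0.03, −0.04 and −0.06, within or near the range of their other chromosomes.

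**Figure D1:**
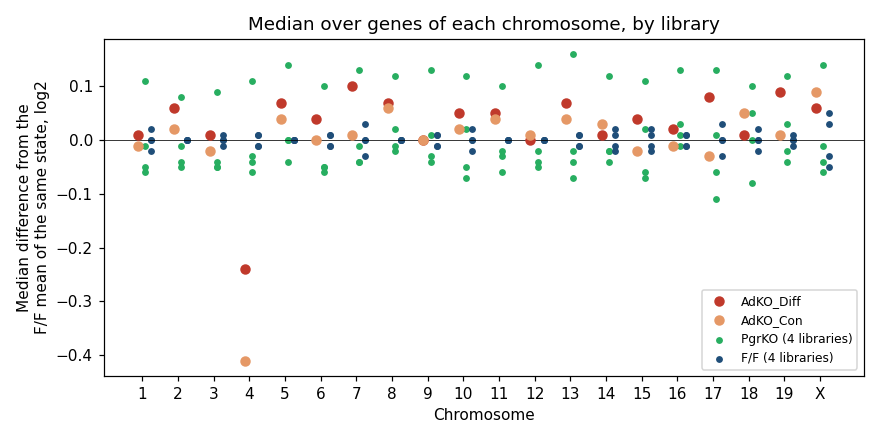
Median difference from the F/F mean of the same state on the log2 scale (vertical axis) over the genes of each chromosome (horizontal axis), 1 point per library, for AdKO (large points), PgrKO and F/F (small points). Chromosome 4 stands below the other chromosomes plotted, which leave out the mitochondrial one, in both AdKO libraries, at −0.24 in AdKO_Diff and −0.41 in AdKO_Con, and in no PgrKO or F/F library.

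The shift ran along the whole chromosome. In all 16 windows of 10 Mb from one end of chromosome 4 to the other, the median was below 0 in both AdKO libraries, with values between −0.72 and −0.08. Elsewhere, 5 of 150 windows with at least 20 genes were under −0.1 in both AdKO libraries, against 7 of 8 such windows on chromosome 4. Chromosome 4 received 4.86% of the reads in AdKO_Diff and 4.2% in AdKO_Con, against 5.65% and 5.47% in F/F_Diff and 5.99% and 5.92% in F/F_Con. It was picked out after the values were seen, so no test was made of it, and the number of its copies was not measured.

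Single genes of chromosome 4 differed in size and direction. Of its 6 most abundant protein-coding genes in F/F, 4, among them *Rps6*, *Txn1* and *Nudc*, lay below the F/F libraries in both states, *Ybx1* and *Prdx1* did not, and none passed the test. *Nudc*, a partner of the dynein motor, had 121 FPKM in AdKO_Diff and 99.4 FPKM in AdKO_Con, against 184 and 260 FPKM in F/F_Diff and 120 and 130 FPKM in F/F_Con. *Prdx1*, a peroxidase of the oxidant defence, had 213 FPKM in AdKO_Diff and 195 FPKM in AdKO_Con, within the 189 to 227 FPKM of F/F. The difference of *Cdc42* exceeded the chromosome 4 median of the block fit (−0.37) by −0.20 log2 units, and 191 of the 579 genes (33.0%) were as low as *Cdc42* or lower. The part of the whole-chromosome shift in the lower level of *Cdc42* was not tested.

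Over all genes tested, 707 (4.68%) differed between AdKO and F/F with state as a block (Benjamini-Hochberg adjusted p under 0.05, limma on log2(FPKM + 1)). Of these, 428 (2.83%) were higher and 279 (1.85%) lower in AdKO, 335 and 198 of them by more than 1 log2 unit. Each of the 707 lay outside both F/F libraries on the same side in both states. A gene without such agreement would rarely pass a fit of a shared shift, so the agreement is no separate support. Without regard to p, 25.1% of all genes lay above and 22.5% below the F/F libraries in both states, and 272 (1.8%) and 122 (0.807%) did so by at least 1 log2 unit. Chromosome 4 held 64 of the 279 lower calls (22.9%) and 11 of the 428 higher ones, while it held 6.42% of the genes tested. Without 1 library, 0 to 17 genes of chromosome 4 were called lower, with 0 without AdKO_Diff, 17 without AdKO_Con, 7 without F/F_Diff replicate 2 and 1 without any other F/F library. With its genes left out, a choice made after seeing the data, 372 genes were higher and 185 lower.

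The count of calls depended on every library. It was 374 without AdKO_Con and 0 without AdKO_Diff, and it was 12 and 73 without F/F_Con replicate 1 and 2 and 26 and 251 without F/F_Diff replicate 1 and 2. Within the Con state alone no gene passed the adjusted threshold by limma (2870 had an unadjusted p under 0.05, and 64 passed by limma-voom on the recovered reads). Within Diff, 108 genes (0.714%) were higher and 180 (1.19%) lower, with 4230 at an unadjusted p under 0.05, and none passed without F/F_Diff replicate 1 or without F/F_Diff replicate 2. No gene passed the test of the difference between the AdKO effects in Diff and Con (2037 at an unadjusted p under 0.05, smallest adjusted p = 0.282, limma). Limma-voom on the recovered reads also called 0 genes for this difference.

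**Figure D2:**
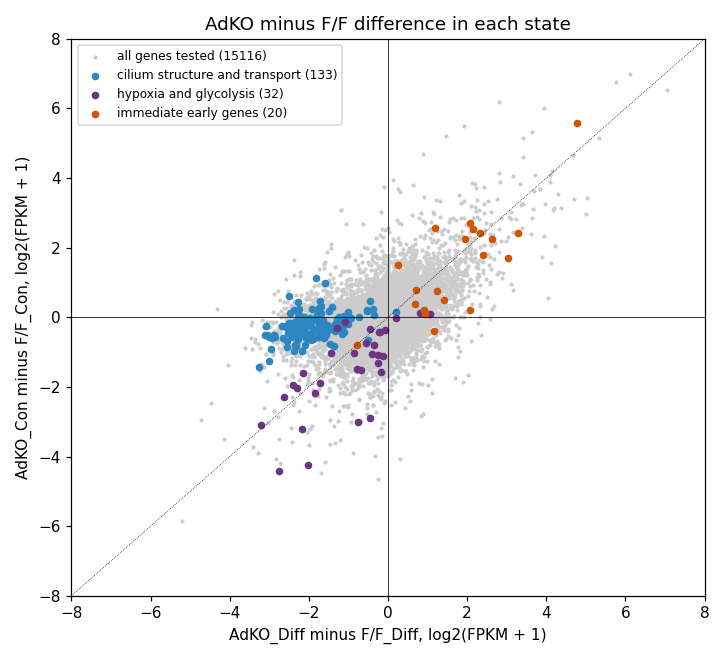
AdKO minus F/F difference on the log2(FPKM + 1) scale in Diff (horizontal axis) and in Con (vertical axis) for the 15116 genes tested (gray), with 3 groups of genes in color and the line of equal difference dotted. Hypoxia and glycolysis genes lie mostly in the lower left, immediate early genes in the upper right, and cilium genes to the left at a Con difference near 0.

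Counts of listed genes are given against all genes tested, of which 2.83% rose, 1.85% fell, 25.1% lay above F/F in both states and 22.5% below. Genes for glycolysis and the response to low oxygen lay mostly below F/F in both states. Cells short of oxygen stabilize the HIF transcription factors, which induce glucose uptake, glycolysis and blood vessel growth. Of the 32 listed genes, all of which passed the filter on low values, 10 fell, none rose, and 27 lay below F/F in both states. The median log2 difference of the list was −0.90 in the block fit, −0.72 in Diff and −1.21 in Con, against −0.02 over all genes tested in the block fit. Without 1 library, 0 to 11 of the 32 were called (0 without AdKO_Diff, 1 without the first library of F/F_Con or of F/F_Diff, 3 without the second of F/F_Con or without AdKO_Con, and 11 without F/F_Diff replicate 2), and the median stayed between −1.21 and −0.72.

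*Vegfa* (chr17:46016993-46032369, GRCm38), the growth factor of blood vessels, had 10.4 FPKM in AdKO_Diff and 12.7 FPKM in AdKO_Con, against 101 and 56.6 FPKM in F/F_Diff and 285 and 297 FPKM in F/F_Con. Both AdKO libraries lay far below the lowest F/F library, with a log2 difference of −3.58 (SE 0.43, adjusted p = 0.0237, limma). *Egln3*, a HIF prolyl hydroxylase that is itself induced by low oxygen, had 14.2 FPKM in AdKO_Diff and 24 FPKM in AdKO_Con, against 85 and 54.1 FPKM in F/F_Diff and 236 and 223 FPKM in F/F_Con (log2 difference −2.69, SE 0.30, adjusted p = 0.0197, limma). *Aldoc*, a glycolytic aldolase, had 3.31 FPKM in AdKO_Diff and 6.74 FPKM in AdKO_Con, against 34.5 and 43 FPKM in F/F_Diff and 59.5 and 71.8 FPKM in F/F_Con (log2 difference −3.15, SE 0.15, adjusted p = 0.0037, limma). In all 3 genes the groups did not overlap, and F/F_Con was higher than F/F_Diff.

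*Slc16a3*, the lactate exporter, had 3.3 FPKM in AdKO_Diff and 2.58 FPKM in AdKO_Con, against 19.6 and 20.7 FPKM in F/F_Diff and 15.1 and 12.5 FPKM in F/F_Con. *Pdk1*, the kinase that keeps pyruvate out of the mitochondrion, had 5.7 FPKM in AdKO_Diff and 3.22 FPKM in AdKO_Con, against 25.4 and 32.6 FPKM in F/F_Diff and 10.9 and 12.6 FPKM in F/F_Con. Both fell, by 2.17 and 1.87 on the log2 scale, as did *P4ha1*, a collagen prolyl hydroxylase (log2 difference −1.81, SE 0.16, adjusted p = 0.0136, limma). The mitophagy receptor *Bnip3*, the phosphofructokinase *Pfkl*, *Ankrd37* and the oxidase of protein folding *Ero1l* made up the rest of the 10. Members of the list that did not pass included *Ldha* (−0.64), *Pgk1* (−0.94) and *Slc2a1* (−0.78), and *Hk1* (0.57) and *Hk2* (0.46) had positive differences. The 4 PgrKO libraries, which share the F/F controls, had 7.48 to 27.1 FPKM of *Vegfa* and 9.63 to 19.4 FPKM of *Egln3*.

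The letters ACGTG, the core of the element bound by HIF, were searched on both strands in the 250 bases before each annotated start of a gene (RefSeq, GRCm38.p6). They were present for 6 of the 9 called hypoxia and glycolysis genes with a promoter entry and for 17 of 29 tested ones (58.6%), against 24.6% of all 10470 tested genes with an entry. A match describes these letters and not a bound site. The list was written from genes known for glycolysis and the response to low oxygen, so its higher share says nothing about these data. The stretch of *Vegfa*, at chr17:46025345-46025399 (minus strand), lies within the span of the gene given above and is not shown. Stretches around the first match are shown for 5 of the genes that fell, with the match and any second one within the stretch in capitals, at chr11:120949015-120949066 (*Slc16a3*, plus strand), chr7:138909585-138909639 (*Bnip3*, minus strand), chr8:46000062-46000100 (*Ankrd37*, minus strand), chr12:54204074-54204124 (*Egln3*, minus strand) and chr10:59323255-59323295 (*P4ha1*, plus strand).
Slc16a3: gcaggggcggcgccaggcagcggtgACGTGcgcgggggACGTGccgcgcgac
Bnip3: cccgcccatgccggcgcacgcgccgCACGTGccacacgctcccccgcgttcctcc
Ankrd37: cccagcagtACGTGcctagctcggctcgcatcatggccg
Egln3: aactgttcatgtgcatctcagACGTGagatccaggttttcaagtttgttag
P4ha1: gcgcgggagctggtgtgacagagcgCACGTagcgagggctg
In *Bnip3* the 2 matches overlap on opposite strands, and in *P4ha1* the capitals read ACGTG on the other strand.

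Immediate early genes, which switch on within minutes of a stimulus and encode AP-1 and related factors, moved in the opposite direction. Of the 22 listed, 20 passed the filter on low values, and of these 8 rose, none fell, and 17 lay above F/F in both states. The list had a median log2 difference of 1.51 in the block fit, 1.68 in Diff and 1.61 in Con. *Fosb* (chr7:19302696-19310051, GRCm38), an AP-1 subunit, had 52.4 FPKM in AdKO_Diff and 90.4 FPKM in AdKO_Con, against 1.98 and 0.286 FPKM in F/F_Diff and 0.573 and 1.27 FPKM in F/F_Con (log2 difference 5.18, SE 0.40, adjusted p = 0.0105, limma). *Fos* had 220 FPKM in AdKO_Diff and 308 FPKM in AdKO_Con, against 39.6 and 30.2 FPKM in F/F_Diff and 39.9 and 100.2 FPKM in F/F_Con (log2 difference 2.45, SE 0.38, adjusted p = 0.0361, limma). In both genes the AdKO libraries were above all 4 F/F libraries.

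*Klf2*, a zinc finger factor, had 17.2 FPKM in AdKO_Diff and 23.9 FPKM in AdKO_Con, against 4.15 and 2.64 FPKM in F/F_Diff and 3.54 and 2.15 FPKM in F/F_Con. The phosphatase *Dusp1* had 32 FPKM in AdKO_Diff and 51.3 FPKM in AdKO_Con, against 7.87 and 3.95 FPKM in F/F_Diff and 5.92 and 12.6 FPKM in F/F_Con. The rises were 2.40 (adjusted p = 0.0196, limma) and 2.37 (adjusted p = 0.0344, limma) on the log2 scale, and the zinc finger factor *Egr3*, *Ier2*, the orphan receptor *Nr4a1* and the mRNA-destabilizing *Zfp36* rose too. *Jun*, on chromosome 4, had a log2 difference of 1.14 and did not pass. Without 1 library, 0 to 4 of the 20 were called (0 without F/F_Con replicate 1 or AdKO_Diff, 1 without F/F_Diff replicate 1 or AdKO_Con, 3 without F/F_Diff replicate 2, and 4 without F/F_Con replicate 2), and the median stayed between 1.34 and 1.70. *Fosb* varied among the PgrKO libraries, with 39.1 and 1.37 FPKM in PgrKO_Diff and 20.6 and 0.587 FPKM in PgrKO_Con, a spread between replicates of 1 group that the single AdKO library of each state could not show.

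**Figure D3:**
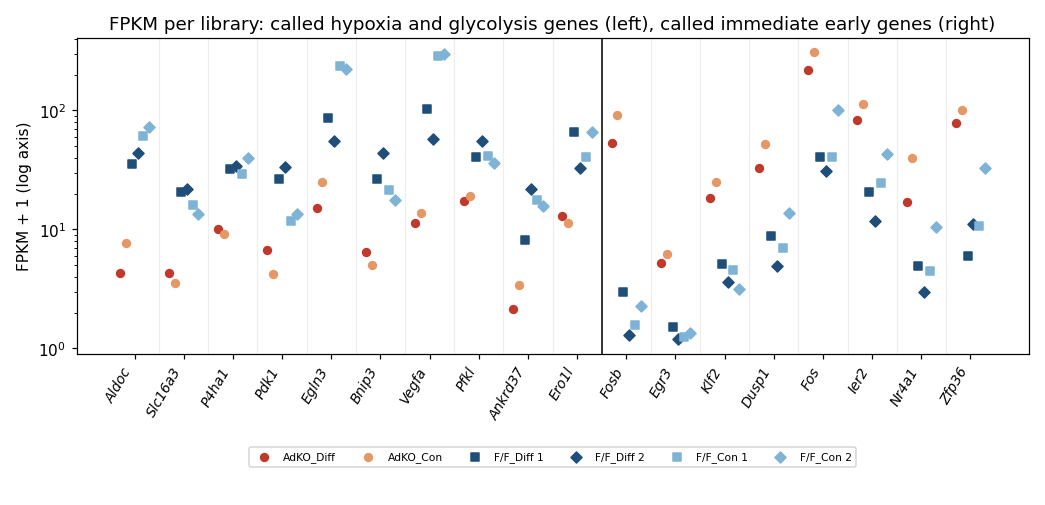
FPKM + 1 on a log axis in each of the 6 libraries for the 10 hypoxia and glycolysis genes that fell (left of the line) and the 8 immediate early genes that rose (right of it). Circles are the AdKO libraries and squares and diamonds the 2 F/F replicates of each state. In each of the 18 genes, as in all called genes, both AdKO libraries lie outside the F/F libraries of their own state.

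The largest rise was that of *Akr1c18*. *Akr1c18* (chr13:4132615-4150654, GRCm38), a hydroxysteroid dehydrogenase that inactivates progesterone, had 422 FPKM in AdKO_Diff and 499 FPKM in AdKO_Con, against 0.68 and 5.11 FPKM in F/F_Diff and 2.78 and 6.63 FPKM in F/F_Con (log2 difference 6.79, SE 0.57, adjusted p = 0.0124, limma). *Kap*, known as an androgen-regulated protein of the mouse kidney, had 68.7 FPKM in AdKO_Diff and 185 FPKM in AdKO_Con, against 0 and 0 FPKM in F/F_Diff and 0.79 and 0.204 FPKM in F/F_Con (log2 difference 6.55, SE 0.26, adjusted p = 0.00302, limma). *Spp1*, which encodes the secreted phosphoprotein osteopontin, had 856 FPKM in AdKO_Diff and 3140 FPKM in AdKO_Con, against 34.7 and 46.7 FPKM in F/F_Diff and 435 and 288 FPKM in F/F_Con (log2 difference 3.76, SE 0.35, adjusted p = 0.0148, limma). *Akr1c18* and *Kap* were thus low in every F/F library, while *Spp1* was also present in F/F_Con. *Kap* had 0 and 0 reads in F/F_Diff and 10 and 2 in F/F_Con, and passed the filter on low values only through AdKO. Near this floor log2(FPKM + 1) narrows the F/F spread, so its standard error and p may be too small.

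The 20 largest rises with an official symbol had log2 differences of 3.58 to 6.79 and adjusted p of 0.00302 to 0.0485. They included the water channel *Aqp8*, the odorant-binding *Obp2a*, the fatty acid carrier *Fabp5*, the phospholipase inhibitor *Pinlyp*, the peptidase *Naalad2* and the prolactin family member *Prl6a1*. The monoacylglycerol lipase *Mgll*, the kininogen *Kng1*, the serine protease *Tmprss11g*, the drug exporter *Abcb1b*, the antitrypsin *Serpina1e*, *Sval2*, *Clca1*, the kidney injury molecule *Havcr1* and the ciliary protein *Cys1* were among them too. *Naalad2* had 35.6 FPKM in AdKO_Diff and 10.4 FPKM in AdKO_Con, against 0.0432 to 0.221 FPKM in F/F. *Kng1* had 34.5 FPKM in AdKO_Diff and 15.7 FPKM in AdKO_Con, against 0.292 to 0.955 FPKM in F/F. Like *Kap*, the genes *Naalad2*, *Kng1*, *Prl6a1* and *Sval2* stayed under 1 FPKM in every F/F library, so the same limit holds for their p-values. *Aqp8* (standard error 0.91) and *Serpina1e* (0.73) varied more, with 20.7 and 21.9 FPKM in the highest F/F library. *Akr1c18*, *Serpina1e*, *Abcb1b* and *Prl6a1* belong to families of similar genes, among which the counting of reads may be uncertain.

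**Figure D4:**
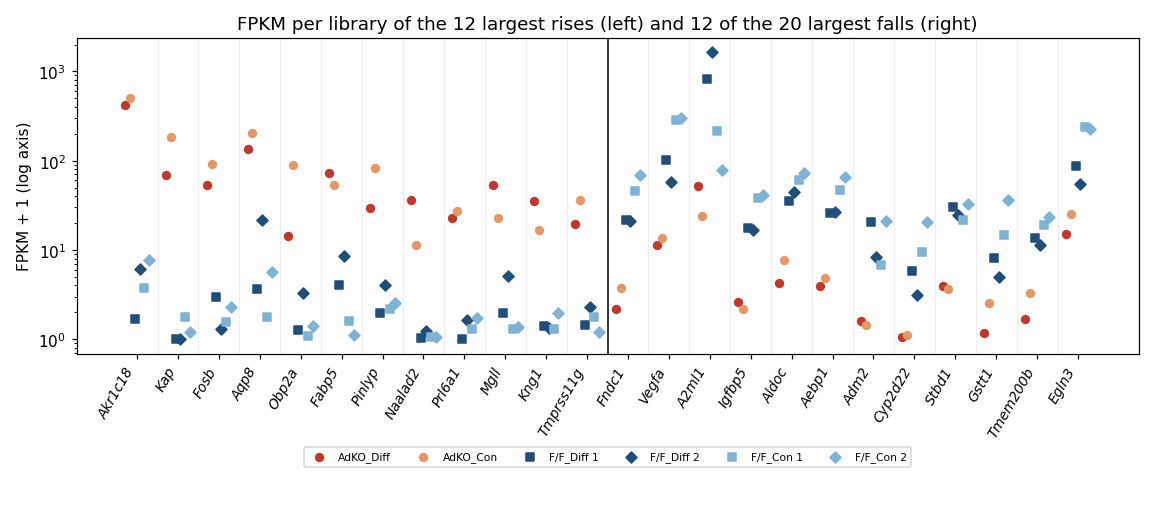
FPKM + 1 on a log axis in each of the 6 libraries for the 12 largest rises (left of the line) and 12 of the 20 largest falls (right of it) in AdKO. Circles are AdKO, squares and diamonds the 2 F/F replicates of each state. The AdKO libraries lie above the F/F libraries of their state in all 12 rises and below them in all 12 falls, as the choice of these genes required.

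Among the 20 largest falls, with log2 differences of −3.60 to −2.35, several encode secreted or matrix proteins. *Fndc1* (chr17:7738569-7827302, GRCm38), a fibronectin type III protein, had 1.18 FPKM in AdKO_Diff and 2.73 FPKM in AdKO_Con, against 20.5 and 20.1 FPKM in F/F_Diff and 44.9 and 67.6 FPKM in F/F_Con (log2 difference −3.60, SE 0.23, adjusted p = 0.00643, limma). *Igfbp5*, which binds insulin-like growth factors, had 1.62 FPKM in AdKO_Diff and 1.16 FPKM in AdKO_Con, against 16.5 and 15.9 FPKM in F/F_Diff and 36.7 and 39.9 FPKM in F/F_Con (log2 difference −3.45, SE 0.33, adjusted p = 0.0148, limma).

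The falls further included the protease inhibitor *A2ml1*, *Aebp1*, the peptide hormone *Adm2*, *Cyp2d22*, the glycogen-binding *Stbd1*, the glutathione transferase *Gstt1*, *Dkk3*, *Kctd14*, *Siglec15*, *Caly*, the glucuronosyltransferase *Ugt1a1* and 2 genes of chromosome 4, *Tmem200b* and *Spag8*. *Aebp1* had 2.91 FPKM in AdKO_Diff and 3.87 FPKM in AdKO_Con, against 25 to 64 FPKM in F/F, while the PgrKO libraries had 34.6 to 154 FPKM. *Dkk3*, a secreted member of the Dickkopf family, had 5.93 FPKM in AdKO_Diff and 1.92 FPKM in AdKO_Con, against 14.8 to 39 FPKM in F/F and 23.9 to 106 FPKM in PgrKO. For these 2 genes the AdKO libraries were thus below the other 8, and no test of the difference between AdKO and PgrKO was made. *Ugt1a1* shares exons with other genes of its locus, and *Cyp2d22* and *Gstt1* have close relatives, so their counts may be uncertain.

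Of 29 keratins and squamous genes, 19 passed the filter on low values, and of these 6 rose, none fell, and 13 lay above F/F in both states (median log2 difference 0.78). *Sprr1a*, a cross-linked protein of the cornified envelope, had 427 FPKM in AdKO_Diff and 138 FPKM in AdKO_Con, against 26.4 and 31.4 FPKM in F/F_Diff and 11.3 and 8.41 FPKM in F/F_Con (log2 difference 3.77, SE 0.16, adjusted p = 0.0035, limma). *Krt4* had 9.54 FPKM in AdKO_Diff and 16 FPKM in AdKO_Con, against 0.498 to 1.99 FPKM in F/F, and *Krt15* had 54.1 and 70.9 FPKM, against 2.12 to 10.6 FPKM. The cornified envelope gene *Lor*, *Krt13* and *Krt6a* rose but stayed low, none above 7.44 FPKM in AdKO. Without 1 library, 0 to 2 of the 19 were called (0 without AdKO_Diff, 1 without AdKO_Con or the first library of F/F_Con or F/F_Diff, and 2 without the second library of either). The 8 markers of basal or squamous epithelium summed to 62.7 and 84.7 FPKM in AdKO, against 7.29 to 19.1 FPKM in F/F, nearly all of it from *Krt15* and *Krt17*. Their defining members *Krt5* and *Trp63* did not exceed 0.24 FPKM in any of the 6 libraries.

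Lists of other metabolic genes differed in direction. Of 24 genes of cholesterol synthesis and uptake, 5 rose, among them *Mvk*, *Cyp51* and *Idi1*, none fell, and 19 lay above F/F in both states (median log2 difference 0.63). *Mvk*, the mevalonate kinase, had 8.74 FPKM in AdKO_Diff and 10.3 FPKM in AdKO_Con, against 3.66 and 4.42 FPKM in F/F_Diff and 4.05 and 4.26 FPKM in F/F_Con (log2 difference 1.04, SE 0.14, adjusted p = 0.028, limma). Among 22 genes of fatty acid synthesis 1 fell and none rose. None of 13 respiratory chain genes of the mitochondrial genome (median log2 difference −0.36) and none of 23 targets of ATF4 and genes of amino acid synthesis (−0.60) passed, and 5 and 7 of them lay below F/F in both states. Of 27 NRF2 targets and glutathione genes, the cell's defence against oxidants, 6 rose and none fell (median log2 difference 0.31). *Gsto1*, a glutathione transferase, had 2350 FPKM in AdKO_Diff and 1930 FPKM in AdKO_Con, against 298 and 470 FPKM in F/F_Diff and 327 and 432 FPKM in F/F_Con (log2 difference 2.50, SE 0.27, adjusted p = 0.0197, limma). *G6pdx*, the entry enzyme of the pentose phosphate pathway, *Gsta3*, the peroxidase *Gpx2*, *Srxn1* and the heme oxygenase *Hmox1* rose as well. Without F/F_Diff replicate 2, 3 of the cholesterol and 4 of the NRF2 genes were called, without AdKO_Con 1 and 2, without F/F_Con replicate 2 1 and 1, and without AdKO_Diff or the first library of F/F_Con or F/F_Diff none of either list.

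Of 38 proliferation genes, 4 rose (*Rrm2*, *Mcm3*, *Pcna* and *Mcm5*), none fell, and 28 lay above F/F in both states, with a median log2 difference of 0.58. Over all genes tested, 2.83% rose and 25.1% lay above F/F in both states. *Rrm2*, a subunit of ribonucleotide reductase, had 25.2 FPKM in AdKO_Diff and 35.4 FPKM in AdKO_Con, against 3.87 and 4.03 FPKM in F/F_Diff and 6.35 and 4.97 FPKM in F/F_Con (log2 difference 2.43, SE 0.14, adjusted p = 0.00564, limma). *Pcna*, the sliding clamp of DNA polymerase, had 27.3 FPKM in AdKO_Diff and 41.8 FPKM in AdKO_Con, against 11.7 and 9.43 FPKM in F/F_Diff and 23.1 and 15.2 FPKM in F/F_Con. AdKO_Diff was above all 4 F/F libraries for both genes. Without AdKO_Diff none of the 38 was called, and without any 1 of the other 5 libraries 1 was. Of 34 p53 targets, *Pmaip1*, which encodes the pro-apoptotic NOXA, and *Gtse1* rose, and *Ccng1* did not pass (log2 difference 1.07, adjusted p = 0.0653, limma).

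Of 25 tested genes of inflammation and chemokines, 3 rose and none fell. The chemokine *Cxcl15* had 61.5 FPKM in AdKO_Diff and 44.3 FPKM in AdKO_Con, against 7.17 and 8.67 FPKM in F/F_Diff and 6.93 and 6.61 FPKM in F/F_Con (log2 difference 2.68, SE 0.14, adjusted p = 0.00395, limma). *Csf1*, the macrophage growth factor, had 55.5 FPKM in AdKO_Diff and 63 FPKM in AdKO_Con, against 9.26 to 24.5 FPKM in F/F, and the cytokine *Il1a* had 11.9 and 21.7 FPKM, against 1.09 to 4.78 FPKM. Of 50 interferon-stimulated genes tested, *Gbp3* rose and *Irgm2* fell, a share no larger than the 4.68% over all genes. Of the 50, 20 lay above F/F in both states and 4 below. These are a larger and a smaller share than the 25.1% and 22.5% of all genes. Their median log2 difference was 0.03 in Diff and 0.40 in Con. Of 20 interferons and sensors of foreign nucleic acid, none passed, and 13 lay above F/F in both states. The class I gene *H2-T23* was the 1 called member of 21 antigen presentation genes and fell, but it has close relatives.

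The partners of CDC42 that passed the test are counted here beside a share of 4.68% over all genes, and no list was tested as a set. Of 29 tested effectors, *Cdc42ep5*, which binds active CDC42 and acts on septins and actin, and the kinase *Cdc42bpg* rose. *Cdc42ep5* had 9.18 FPKM in AdKO_Diff and 12.7 FPKM in AdKO_Con, against 0.956 and 1.48 FPKM in F/F_Diff and 2.6 and 3.92 FPKM in F/F_Con (log2 difference 1.96, SE 0.22, adjusted p = 0.0202, limma). Of 31 exchange factors and GAPs *Fgd3* rose and *Fgd1*, an exchange factor for CDC42, fell. *Fgd1* had 0.462 FPKM in AdKO_Diff and 0.352 FPKM in AdKO_Con, against 2.01 to 2.41 FPKM in F/F. No gene of apical polarity (16 tested) or of adherens junctions and desmosomes (21 tested) passed, and *Cgnl1* rose among 21 tight junction genes. Of 26 actin and SRF targets 3 rose, among them the cytoplasmic actin *Actg1* and the myosin light chain *Myl6*.

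In the PI3K and AKT pathway, which the study examined in oviduct organoids, 1 of 35 tested genes passed. *Pik3ip1*, an inhibitor of PI3K, fell, with 2.55 FPKM in AdKO_Diff and 3.48 FPKM in AdKO_Con, against 6.77 and 4.83 FPKM in F/F_Diff and 11.4 and 9.76 FPKM in F/F_Con (log2 difference −1.14, SE 0.19, adjusted p = 0.0416, limma). *Akt1* had 75.4 FPKM in AdKO_Diff and 69.8 FPKM in AdKO_Con, against 47.3 and 38.2 FPKM in F/F_Diff and 59.9 and 56.8 FPKM in F/F_Con, above all 4 F/F libraries without passing (log2 difference 0.53, SE 0.18, adjusted p = 0.138, limma). *Pik3cb* (0.33), *Pik3ca* (−0.08) and *Akt2* (−0.25) had smaller differences and did not pass, with standard errors of 0.14 to 0.15.

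Among steroid receptors and estrogen targets, *Igfbp5*, *Igfbp4* and the potassium channel *Kcnk5* fell and the morphogen *Ihh* rose, of 18 tested. *Ihh* had 3.54 FPKM in AdKO_Diff and 2.55 FPKM in AdKO_Con, against 0.83 and 1.52 FPKM in F/F_Diff and 0.128 and 0.213 FPKM in F/F_Con. *Ovgp1*, the oviductal glycoprotein of secretory cells, which was singled out after its values were seen, had 252 FPKM in AdKO_Diff and 41.3 FPKM in AdKO_Con, against 1345 and 3822 FPKM in F/F_Diff and 91.9 and 140.6 FPKM in F/F_Con. It was below F/F in both states but did not pass (log2 difference −2.30, SE 0.58, adjusted p = 0.0836, limma). Of 22 tested secretory cell genes, 3 rose (*Sprr1a*, *Itln1* and *Msx2*) and none fell, with a median log2 difference of 0.895. *Itln1* and *Msx2* stayed under 1 FPKM in every F/F library. Above F/F in both states lay 14 of the 22 and below it 2, against 25.1% and 22.5% of all genes.

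The genes of motile cilia had a larger median difference between AdKO and F/F in Diff than in Con. The difference between states passed for none of them (limma). Of 133 tested genes for dynein arms, radial spokes, nexin links, other parts of the axoneme and intraflagellar transport, 132 were lower in AdKO_Diff than the F/F_Diff mean and 29 passed the test within Diff, all of them lower, but none did without F/F_Diff replicate 1 or without replicate 2. Over all 15116 genes tested, 7442 were lower in AdKO_Diff than the F/F_Diff mean, and 1.19% passed as lower within Diff. The median log2 difference of the 133 cilium genes was −1.98 in Diff and −0.28 in Con. In the block fit, which asks for a shared shift, 4 of them passed, all lower and among them *Cfap53*, *Ccdc114* and *Spag8*. Below F/F in both states lay 67 of the 133, against 22.5% of all genes. In bulk samples, fewer ciliated cells and less RNA per ciliated cell cannot be told apart. The 10 ciliated cell markers summed to 503 FPKM in AdKO_Diff and 341 FPKM in AdKO_Con, against 1810 and 2040 FPKM in F/F_Diff and 454 and 332 FPKM in F/F_Con, so that AdKO_Con lay within the range of F/F_Con and AdKO_Diff far below F/F_Diff.

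Upstream of the cilium genes, *Cdc20b*, which acts at the deuterosomes where centrioles are made, was the 1 called gene of 17 multiciliogenesis regulators and fell in both states. It had 4.11 FPKM in AdKO_Diff and 1.94 FPKM in AdKO_Con, against 22.4 and 37.2 FPKM in F/F_Diff and 8.04 and 13.9 FPKM in F/F_Con (log2 difference −2.26, SE 0.31, adjusted p = 0.0299, limma). *Deup1*, the scaffold of the deuterosome, had 6.6 FPKM in AdKO_Diff and 4.34 FPKM in AdKO_Con, against 24.8 and 47.3 FPKM in F/F_Diff and 9.69 and 16.8 FPKM in F/F_Con (log2 difference −1.79, SE 0.37, adjusted p = 0.0576, limma). Both lay below F/F in each state, also in Con, where the median difference of the cilium genes was −0.28. No regulator was called without AdKO_Diff, without either F/F_Con replicate or without F/F_Diff replicate 1, and 1 and 2 were without F/F_Diff replicate 2 and AdKO_Con.

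*Mcidas*, the coactivator that starts the multiciliated programme, had 5.4 FPKM in AdKO_Diff and 4.17 FPKM in AdKO_Con, against 23.8 and 33.7 FPKM in F/F_Diff and 6.11 and 13.8 FPKM in F/F_Con. *Foxj1*, the factor that drives motile cilium genes, had 138 FPKM in AdKO_Diff and 102 FPKM in AdKO_Con, against 476 and 534 FPKM in F/F_Diff and 136 and 157 FPKM in F/F_Con. *Myb* and *Ccno* likewise lay below F/F in both states without passing (log2 differences −1.49 and −1.35). For *Ccno*, AdKO_Con was nearly level with F/F_Con replicate 1, with 343 reads at a library size of 12095330, against 508 at 17898399. *Gmnc* (−1.02) and *Ccdc78* (−1.64) lay within the F/F_Con range in Con. *Rfx2*, *Rfx3* and *Trp73*, the last on chromosome 4, had log2 differences of −1.04, −0.84 and −0.75, larger in Diff (−1.75, −1.50 and −1.24) than in Con (−0.32, −0.19 and −0.27). The Notch target *Hes1* had 34.5 FPKM in AdKO_Diff and 41.5 FPKM in AdKO_Con, against 22.9 and 26.4 FPKM in F/F_Diff and 45.5 and 65.9 FPKM in F/F_Con, above F/F in Diff and below it in Con.

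**Figure D5:**
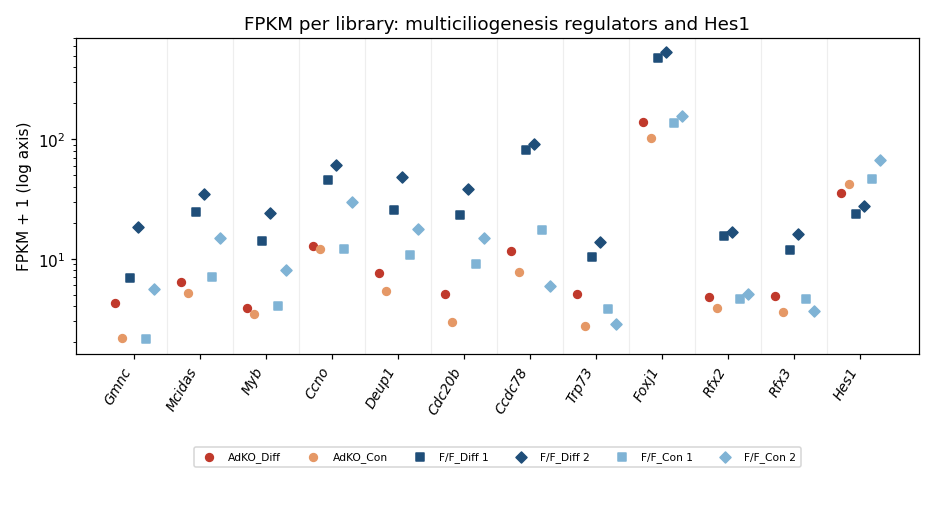
FPKM + 1 on a log axis in each of the 6 libraries for regulators of multiciliogenesis and *Hes1*. Circles are AdKO, squares and diamonds the 2 F/F replicates of each state. Both F/F_Diff libraries are above every other library for the 11 regulators, and AdKO_Diff lies near F/F_Con for *Foxj1* (138 FPKM, against 136 and 157 FPKM).

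No difference between states passed the adjusted threshold, and the values of the 10 genes with the smallest unadjusted p of that difference are a description, since they were chosen for it. *Trim47*, *Tgfbi*, *Ccn4*, *Tnc* and *Aldh1a3* were high in F/F_Con and low in the other groups. *Tgfbi*, an adhesion protein of the matrix, had 2.26 FPKM in AdKO_Diff and 0.789 FPKM in AdKO_Con, against 2.1 and 3.79 FPKM in F/F_Diff and 44 and 43 FPKM in F/F_Con (difference between states 4.40 on the log2 scale, adjusted p = 0.282, limma). *Tnc*, the matrix protein tenascin C, had 10.1 FPKM in AdKO_Diff and 9.54 FPKM in AdKO_Con, against 8.18 and 6.31 FPKM in F/F_Diff and 69.1 and 57.6 FPKM in F/F_Con. *Ccl6*, *Ttll9*, *Mt3*, *Naaa* and *Nek2* went the other way: *Nek2*, a centrosomal kinase, had 6 FPKM in AdKO_Diff and 8.68 FPKM in AdKO_Con, against 49.5 and 60 FPKM in F/F_Diff and 10.9 and 8.5 FPKM in F/F_Con.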

How the data were processed

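RNA of mouse oviduct organoids was sequenced in 10 libraries, of which the 6 AdKO and F/F libraries were compared here. The authors deposited 1 table of FPKM values per gene. Their processing notes name mm10, HISAT2 and edgeR, and the paper's methods name TopHat2, so the aligner is uncertain. At least 99.99% of the deposited FPKM values gave whole reads within 0.01 read, which gave depths of 11745729 to 16818787 reads for the 6 libraries. All value columns were mapped to samples (0 unmapped).

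Genes that averaged 1 FPKM or more in any group were tested on log2(FPKM + 1), so differences of low genes are understated, with limma 3.58.1 in R 4.3.3, state as a block, 3 residual degrees of freedom and Benjamini-Hochberg adjustment over 15116 genes. The single AdKO library of each state was assumed to vary like F/F. For genes near 0 in F/F this spread is narrowed by log2(FPKM + 1), so their p-values may be too small. An exact permutation test within states has 9 assignments and cannot go below p = 0.111. Named genes were the 20 largest rises and falls, up to 4 genes per list with the smallest p, genes named by the study and 10 genes for the difference between states. Other list members and all abundant genes of chromosome 4 were named after their values were seen. Members and lists were chosen with earlier results of these data known. On simulated data for the block comparison (15116 genes), 39.8% of changes of 1 log2 unit and 77.8% of changes of 2 were recovered. The simulation gave AdKO the spread of the F/F replicates, independent noise and an equal shift in both states, so real recovery may be lower. Alternatives covered the pseudocount, filter, scaling, model and each library left out. Some genes are not reported here. Columns were read as deposited, and genes with close paralogs may share reads.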

Additional observations from a re-analysis of the deposited data

Results flagged for a closer look

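Among the named genes, 9 lay on opposite sides of F/F in the 2 states, above both F/F libraries of one state and below both of the other. Over all 15116 genes tested, 2472 did so. The difference between states was tested for each of the 9 and passed for none (adjusted p of 0.282 or more, limma). It was 3.66 for *Trim47* and 3.04 for *Tnc*, both low relative to F/F in Con. It was −3.55 for *Ccl6*, −2.57 for *Naaa*, −2.17 for *Ttll9* and −2.14 for *Mt3*, all low relative to F/F in Diff. It was smaller for *Cd14* (1.23), *Hes1* (0.87) and *Prdx1* (0.28). *Trim47*, *Tnc*, *Ccl6*, *Naaa*, *Ttll9* and *Mt3* were named for this difference, so their values are a description.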

How the results depend on the processing

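The 707 calls with state as a block became 190 with no filter on low values, 20 in an unmoderated linear model, 1857 in a fit of all 10 libraries, 30 at an adjusted p under 0.01 and 1173 by limma-voom. Median scaling gave 496 higher and 230 lower genes, a pseudocount of 0.1 gave 377 and 383, and a 4-group fit of the 6 libraries gave 531 and 528. Leaving out 1 library gave 0 to 374 calls. Without 1 F/F library, 12 to 251 genes were called and shifted the same way, and this count was not run without an AdKO library. A distance of at least 2 log2 units from F/F left 71 called genes. The 394 genes at least 1 log2 unit beyond F/F became 1415 at 0.5 and 73 at 2. The test of the difference between states called 307 genes with no filter and 69 in the unmoderated model. Within Con, 39 genes were called in the 10-library fit and 64 by limma-voom. Within Diff, the counts were 1212 and 508, and 0 to 0 without 1 F/F_Diff library.

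The median of the hypoxia and glycolysis genes was −1.03 with a pseudocount of 0.1, −1.28 by limma-voom and −1.21 to −0.72 without 1 library. That of the immediate early genes was 1.88 over genes averaging 5 FPKM or more, 1.99 without chromosome 4 and 1.34 to 1.70 without 1 library. The chromosome 4 median of −0.31 over all its tested genes was −0.37 with a pseudocount of 0.1, −0.35 at 5 FPKM, −0.28 after quantile normalization, −0.24 after median scaling, −0.39 by limma-voom and −0.36 to −0.21 without 1 library. Limma-voom, the fits without chromosome 4 and the list medians were chosen after seeing the data.

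F/F replicates of one number did not deviate together in Con and Diff (r = −0.0452 across genes), so they share only a number. With the replicate block, 48 genes were called and the chromosome 4 median was −0.32.

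Some uncalled genes changed direction. *Mt3* was at 0.014 with a pseudocount of 0.1, *Prdx1* at 0.052 after median scaling and *Ccl6* at −0.56 by limma-voom. Without 1 library, the differences spanned −1.43 to 2.12 for *Ccl6*, −0.20 to 1.03 for *Cd14*, −0.089 to 0.13 for *Cd68*, −1.69 to 0.25 for *Lyz2*, −0.38 to 0.036 for *Epcam*, −0.39 to 0.47 for *Hes1*, −1.46 to 0.68 for *Mt3*, −1.63 to 0.94 for *Naaa*, −0.15 to 0.13 for *Prdx1*, −2.60 to 0.43 for *Tnc*, −2.77 to 0.88 for *Trim47*, −2.14 to 0.032 for *Ttll9* and −0.14 to 0.47 for *Ybx1*. The causes were not tested.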
